A study of Mus musculus with 19 samples.

Results

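Peg3 and 9 further imprinted genes (Zim1, Plagl1, H19, Igf2, Igf2r, Mest, Grb10, Ndn and Meg3) were followed across 19 lines of mouse pancreatic ductal organoids, hollow epithelial spheres kept in a gel. The genes were chosen by symbol, and all 10 have a row among the 29861 rows of the deposited expression table. Peg3 entered because of its measured difference between PanIN and normal lines, so its values are given as a description with no test. The values, if any, by which the other 9 genes were chosen are not recorded, so their test results are read only against the share of all genes called. Of the 10 genes, 6 reached a TPM (an abundance per transcript length, expressed as a share of each library's fixed total) of at least 1 in at least 6 lines, which was the condition for a test. Peg3, Plagl1, Igf2r, Mest, Grb10 and Meg3 passed it, whereas Zim1, H19, Igf2 and Ndn did not.

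The tumor group held 6 lines from adenocarcinomas of mice with a Cre-activated Trp53 R172H allele and Pdx1-Cre, and the PanIN group held 6 lines of ducts taken where the pancreas held pancreatic intraepithelial neoplasia, a precursor lesion, in mice with Pdx1-Cre. Both groups also share a further Cre-activated allele that is not reported here. The normal group held 7 lines from ducts of normal pancreas of wild-type mice, which carry no Cre. All mice were on a C57B6/J background. Tumor and PanIN lines differ in the Trp53 allele and the tissue of origin at once, so the effects of allele and tissue cannot be told apart. Both groups also differ from normal lines in Pdx1-Cre, the further allele and the tissue at once. These effects cannot be told apart either in comparisons with normal lines. Pdx1-Cre acts in the pancreatic lineage from early development, so recombination is not limited to ducts, and PanIN lines came from whole ducts of lesion-bearing pancreas rather than from dissected lesions. Lines were grown in Matrigel in medium that contained noggin, R-spondin, EGF, FGF-10, gastrin and A83-01, an inhibitor of the TGF-beta receptor, and libraries were made from total RNA after removal of ribosomal RNA. Nothing states whether any of the lines shared a mouse, so the p-values cover the variation from line to line and may miss that between animals.

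Imprinted genes are expressed mainly from the copy inherited from the mother or from the father, because DNA methylation laid down in a germ line marks a control region that acts on a whole cluster of genes. Many of them regulate fetal growth, several through the insulin-like growth factors, and many are silenced in most cells after birth. The TPM values sum both parental copies and do not show which was transcribed. They also come from bulk RNA, in which fewer cells with a transcript and less of it in each cell cannot be told apart.

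The number of genes at a TPM of 1 or more was 11938 to 12437 per line, and the read depth is unknown because TPM does not keep it. All 9 markers of ductal epithelium passed the filter, with a summed level of 6022 to 7752 TPM in tumor, 6589 to 9304 in PanIN and 7525 to 12351 in normal lines. Fibroblast markers, which matter here because mesenchymal cells express several imprinted genes, summed to 0.29 to 5.68 TPM in tumor, 0.33 to 1.61 in PanIN and 0.86 to 4.44 in normal lines. Of these 11 markers, 10 stayed below a TPM of 1 in every line, Col3a1 and Lum were listed at 0 throughout, and only Vim, which cultured epithelium can also express, passed the filter. The summed level of endocrine markers was at most 0.1 TPM in any line. Library identifiers in the column names fall into 3 series, treated as a possible batch. The first holds 1 tumor, 3 PanIN and 3 normal lines, the second 3 tumor, 1 PanIN and 2 normal lines, and the third 2 lines of each group.

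In the mouse genome Peg3 and Usp29, both transcribed from the paternal copy, start back to back on opposite strands, and the methylated control region of the domain covers this shared start. In RefSeq's GRCm38.p6 annotation Peg3 lies on the minus strand of chromosome 7 at chr7:6703892-6730462 and the annotated start of Usp29 is separated from it by 96 bases. These 96 bases between both genes are shown because every level in this domain is read from either side of them. They are given on the plus strand at chr7:6730463-6730558, with 2 CCAAT boxes, a short promoter element bound by the factor NF-Y, in capitals.
Peg3-Usp29 interval: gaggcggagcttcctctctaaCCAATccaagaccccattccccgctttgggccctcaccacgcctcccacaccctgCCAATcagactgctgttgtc
A CCAAT box (CCAAT, either strand) occurs in 37.4% of the 32851 RefSeq promoter windows, which span 250 bases before to 50 bases after each start, so its presence is common. A full cyclic AMP response element (TGACGTCA, which reads the same on both strands) occurs in 1.79% of windows, and among the 9 members with a window it was found for Peg3 and Meg3. H19 has no window in the table. Both elements are shown with the gene's own strand running 5′ to 3′ and the element in capitals, 171 bases before the transcript start on which the Peg3 window is placed, at chr7:6730580-6730607 (minus strand, within the annotated beginning of Usp29), and 50 bases before that of Meg3 at chr12:109540929-109540956 (plus strand).
Peg3 element: ctgactccgtTGACGTCAactccgtgcc
Meg3 element: cagaatgcgcTGACGTCAaagaccaccc
The YY1 core GCCATNTT, searched on both strands because YY1 sites are known from the Peg3 control region, occurs in 6.05% of windows and in none of the members' windows. These matches describe the letters of the windows and say nothing of binding.

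Peg3 encodes a large zinc finger protein transcribed from the paternal copy and is described as a growth-restraining gene in several cancers. It was higher in PanIN than in normal lines and split the tumor lines into a high and a low set. In tumor lines its level was 53.0 TPM in tumor 3, 48.69 in tumor 4, 12.8 in tumor 5, 14.3 in tumor 7, 7.12 in tumor 8 and 15.98 in tumor 9. PanIN lines 1 to 6 had 53.28, 48.73, 31.13, 34.94, 37.91 and 55.41 TPM. Normal lines 5, 6, 7, 10, 11, 12 and 13 had 16.37, 16.57, 18.48, 13.16, 12.32, 11.68 and 8.93 TPM. PanIN and normal lines therefore did not overlap (true of 3.05% of all tested genes), tumor 3 and tumor 4 lay within the PanIN range, and the other 4 tumor lines lay within or below the normal range. Nothing lay between 18.48 and 31.13 TPM, so 8 lines were high and 11 were low.

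Group means of Peg3 were 25.3 ± 20.0 TPM in tumor (SD, n = 6), 43.6 ± 10.2 in PanIN (SD, n = 6) and 13.9 ± 3.34 in normal lines (SD, n = 7). The spread in tumor lines was 79.2% of their mean, against 24.0% in normal lines. On the log2(TPM + 1) scale, on which all fold changes here are given and which understates the change of low genes, PanIN exceeded normal lines by 1.58 (SE 0.34), a 2.98-fold difference that is the reason for its choice. The tumor mean exceeded the normal mean by 0.50 (SE 0.34) and was lower than the PanIN mean by 1.08 (log2 difference -1.08, SE 0.35). No test is attached to these values. Both tumor differences rest on a mixture of lines: without tumor 3 the tumor-normal difference was 0.23, and without tumor 8 it was 0.77.

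Within the identifier series, taken in order, the PanIN-normal difference of Peg3 was 1.29, 1.39 and 2.06 on the log2 scale. The tumor-normal difference was 1.46 in the first series with its single tumor line, -0.20 in the second and 1.43 in the third, so its direction was not the same in every series. Tumor 3 and tumor 4 are both from male mice, as is tumor 5, which was low. All 3 female tumor lines were low. PanIN lines, 3 female and 3 male, were all high, and normal lines, 5 female and 2 male, were all low. Whether sex had a part in the division of the tumor lines was not tested. In the authors' deposited table Peg3 has a mean normalized count of 4087, so its values rest on far more reads than those of its neighbours, and a log2 fold change of 0.82 for tumor and 1.60 for PanIN lines against normal lines.

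Usp29, which encodes a ubiquitin-specific protease and runs away from Peg3 on the other strand, followed the same division of lines at a much lower level. It had 0.64, 0.50, 0.14, 0.05, 0.07 and 0.15 TPM in tumor lines 3, 4, 5, 7, 8 and 9, and 0.42, 0.41, 0.19, 0.49, 0.47 and 0.64 TPM in PanIN lines 1 to 6. In the normal lines, in the order given for Peg3, it had 0.19, 0.14, 0.15, 0.09, 0.08, 0.13 and 0.04 TPM. Tumor 3 and tumor 4 again stood with the PanIN lines, and PanIN 3 alone among PanIN lines was at a normal level. The authors' deposited table gives Usp29 a mean normalized count of 28.4, which leaves a wide counting error on each line.

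Zim1, a zinc finger gene transcribed from the maternal copy, lies 7351 bases from the 3′ end of Peg3 in GRCm38.p6. Tumor lines 3, 4, 5, 7, 8 and 9 had 0.13, 0.17, 0.03, 0.06, 0.03 and 0.05 TPM. PanIN lines 1 to 6 had 0.17, 0.10, 0.03, 0.09, 0.09 and 0.25 TPM, and all normal lines lay between 0 and 0.04 TPM. Of the 8 lines highest in Peg3, 7 were also the 7 highest in Usp29, and PanIN 3, the other line, tied with normal 5 at 0.19 TPM. In Zim1 7 of the 8 were among the 8 highest, and the exception was again PanIN 3. Zim2 and Zfp264 have no row under these symbols, and Zim3 was listed at 0 in all lines.

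**Figure D1:**
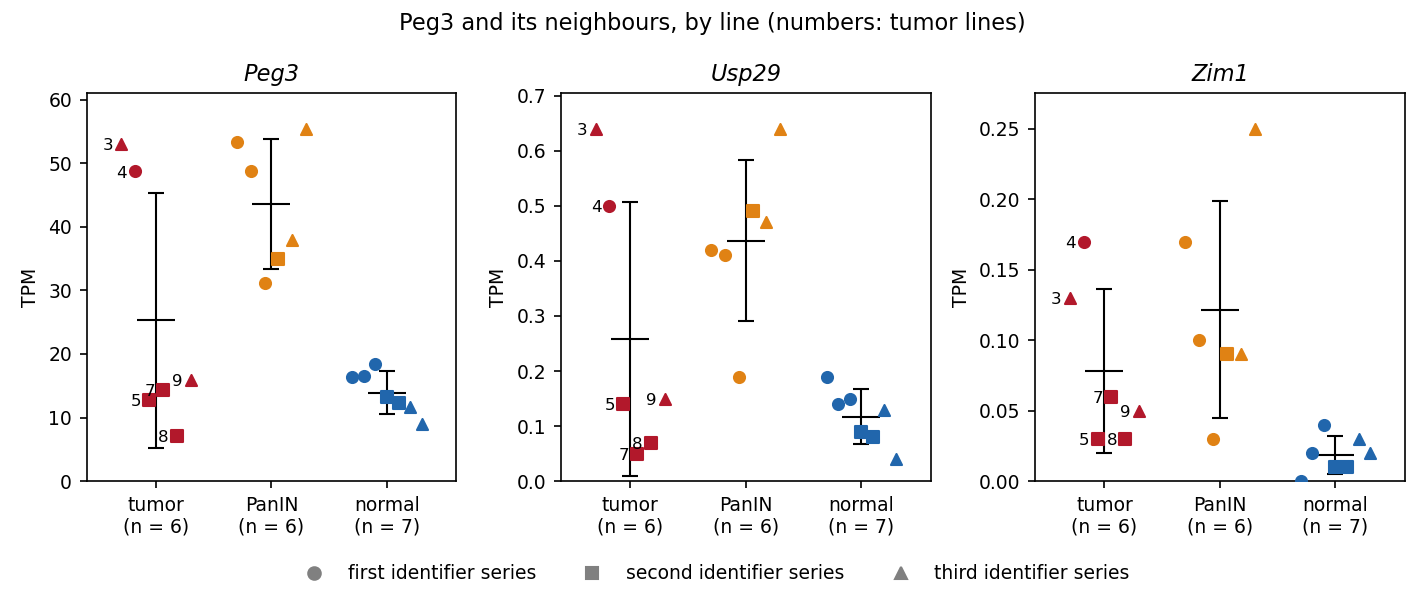
TPM (linear axes) of Peg3, Usp29 and Zim1 in each line, by group; points are lines, marker shapes are identifier series, bars show mean ± SD, and numbers name tumor lines. Tumor 3 and tumor 4 lie with the PanIN lines in all 3 panels; Peg3 reaches 55.41 TPM and Zim1 0.25 TPM, so the axes differ.

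Zim1, Igf2 and Ndn were below the filter and were compared by an exact two-sided permutation test over lines on log2(TPM + 1), 9 tests whose p-values are not adjusted. For Zim1 the exact permutation p was 0.00350 for PanIN against normal lines, with means of 0.122 ± 0.077 (SD, n = 6) and 0.0186 ± 0.0135 TPM (SD, n = 7). Tumor lines averaged 0.0783 ± 0.0581 TPM (SD, n = 6), with an exact p of 0.00699 against normal and 0.279 against PanIN lines. When the filter was dropped and all 20990 rows with a value above 0 were fitted together with limma, the adjusted p of Zim1 was 0.0453 for PanIN against normal lines, 0.138 for tumor against normal lines and 0.450 for tumor against PanIN lines. Its mean normalized count in the authors' deposited table is 5.64, so a few reads separate the groups.

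Igf2, the paternally transcribed fetal growth factor, and H19, its maternally transcribed noncoding neighbour, share a control region at which CTCF decides which gene reaches their enhancers. H19 was listed at 0 TPM in all 19 lines, and its fields in the authors' deposited table are blank, so this 0 cannot be told apart from a failed estimate. Igf2 was listed at 0 to 0.03 TPM in tumor lines, at 0 in all 6 PanIN lines and at 0 to 0.06 TPM in normal lines. The exact permutation p was 0.00816 for PanIN against normal, 0.283 for tumor against normal and 0.0152 for tumor against PanIN lines. The corresponding adjusted p with limma without the filter was 0.114, 0.351 and 0.443, and a mean normalized count of 0.973 in the authors' deposited table shows that these values stand for about a single read per library. Igf1 was at or below 0.04 TPM. Ins2 was listed at 0, and its fields in the authors' deposited table are blank, so its 0 has the same limit as that of H19. No IGF ligand or insulin message was thus listed above trace level.

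Igf2r encodes the receptor that binds IGF2 and carries it to lysosomes, and in mice it is transcribed mainly from the maternal copy. Over all lines it had the highest mean level of the 10 genes, at the 75.1th percentile of the 12500 genes tested. Its level ran from 23.88 to 46.85 TPM in tumor lines (median 33.2), from 33.12 to 52.14 in PanIN lines (median 40.4) and from 28.41 to 58.02 in normal lines (median 38.3). The 3 ranges overlapped, and in limma with Benjamini-Hochberg adjustment over all genes the log2 change was -0.27 (SE 0.17, adjusted p = 0.227) for tumor and 0.02 (SE 0.17, adjusted p = 0.973) for PanIN against normal lines, and -0.29 (SE 0.18, adjusted p = 0.278) for tumor against PanIN lines. The tumor-normal difference was 0.28, -0.94 and 0.16 within the 3 identifier series in order, so its direction was set by the second. Airn, the paternal noncoding transcript that runs antisense to Igf2r, lay between 1.77 and 5.86 TPM and was not called in any comparison. The kit marked strand, but no source used here gives the strand setting of the counting, so reads of Airn and Igf2r where they overlap may not be fully separated.

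Grb10 encodes an adaptor that dampens signalling from the insulin and IGF receptors and is maternally transcribed in most mouse tissues. Tumor lines ranged from 0.69 (tumor 8) to 5.42 TPM with a median of 3.74, PanIN lines from 1.86 to 5.71 with a median of 3.41, and normal lines from 4.10 to 8.56 with a median of 4.75. Every normal line was at or above 4.10 TPM, whereas 3 of 6 tumor and 4 of 6 PanIN lines were below it, yet the ranges overlapped. The log2 change was -0.61 (SE 0.26, limma adjusted p = 0.0746) for tumor and -0.49 (SE 0.26, adjusted p = 0.317) for PanIN against normal lines. The tumor-PanIN change was -0.12 (SE 0.27, adjusted p = 0.796). The tumor-normal comparison passed the threshold without tumor 4 (adjusted p = 0.0303), when the log2 change was -0.74, and within the series the difference was -0.05, -0.92 and -0.32. Ddc, the neighbour of Grb10, encodes aromatic L-amino acid decarboxylase and is imprinted in the developing heart. It rose 2.47-fold in PanIN (2.72 ± 0.842 TPM, SD, n = 6) and 1.78-fold in tumor lines (1.72 ± 0.819 TPM, SD, n = 6) against normal lines (0.497 ± 0.310 TPM, SD, n = 7), with limma adjusted p of 0.000394 and 0.00419. All PanIN lines lay above all normal lines in Ddc, and PanIN and normal lines did not overlap for 3.05% of all tested genes. Ddc reached a TPM of 1 in 12 lines, of which normal 5 (1.07 TPM) was the only normal line. It was therefore tested mainly because of the groups in which it was high.

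Plagl1, also called Zac1, encodes a zinc finger transcription factor that halts the cell cycle and is paternally transcribed. Of the 5 tested members other than Peg3, it alone was called in a comparison. Tumor lines 3, 4, 5, 7, 8 and 9 had 2.14, 2.63, 2.19, 1.93, 2.66 and 2.48 TPM. PanIN lines 1 to 6 had 1.64, 1.51, 2.05, 1.16, 2.09 and 1.99 TPM, and normal lines ran from 1.43 to 2.26 TPM with a median of 1.70. The highest normal line, normal 12, lay above 3 of the 6 tumor lines. Plagl1 rose 1.23-fold in tumor against normal lines (log2 change 0.29, SE 0.10, limma adjusted p = 0.0291), and the difference was 0.45, 0.34 and 0.15 within the 3 series in order.

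That call was not stable, although the authors' DESeq comparison of tumor against normal lines gave Plagl1 an adjusted p of 0.0236. The exact permutation p, unadjusted, was 0.00583. The limma adjusted p of Plagl1 was 0.0509 without normal 6, 0.0599 without normal 11, 0.0741 without tumor 8 and 0.0623 without tumor 9. With all lines kept, it was 0.0796 when the rows that lack a comparison by the authors, several of them mitochondrial, were removed and TPM was rescaled. PanIN and normal lines had nearly the same mean (log2 change 0.00, SE 0.10, adjusted p = 0.996), and the tumor-PanIN change was 0.29 (SE 0.10, adjusted p = 0.0814). Without PanIN 6 the tumor-PanIN comparison was called (adjusted p = 0.0397). A separate row named Zac1, a synonym of Plagl1 in RefSeq, held 0 to 0.41 TPM, so reads of this gene may be divided between rows. Phactr2, the neighbour of Plagl1, which encodes a phosphatase and actin regulator, rose 1.40-fold in tumor (5.82 ± 0.477 TPM, SD, n = 6) against normal lines (3.96 ± 0.988 TPM, SD, n = 7; limma adjusted p = 0.00603).

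Mest, a paternally transcribed gene whose product has the fold of a hydrolase and is used as a marker of fetal mesoderm, was divided within groups. Tumor lines 3, 5, 8 and 9 had 2.63, 2.85, 2.72 and 2.14 TPM, while tumor 4 and tumor 7 had 0.75 and 0.71 TPM. Of the PanIN lines, 5 had 0.63 to 0.92 TPM and PanIN 6 had 2.21 TPM. Normal lines ran from 0.83 to 2.98 TPM with a median of 1.46. No comparison passed the test: the log2 change was 0.17 (SE 0.22, limma adjusted p = 0.592) for tumor and -0.37 (SE 0.22, adjusted p = 0.408) for PanIN against normal lines. The tumor-PanIN change was 0.54 (SE 0.23, adjusted p = 0.133), and it was called without PanIN 6 (adjusted p = 0.0362) or without tumor 4 (adjusted p = 0.0458). Within the series that change was -0.05, 0.77 and 0.56. Copg2, a coatomer subunit gene whose annotated span overlaps the end of Mest in GRCm38.p6, fell in tumor lines, at 46.2 ± 4.66 TPM (SD, n = 6) against 55.9 ± 3.99 TPM in normal lines (SD, n = 7), 1.21-fold lower (limma adjusted p = 0.0149). As for Airn and Igf2r, reads from the overlap may not be fully separated.

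Ndn encodes necdin, a growth suppressor of the MAGE family expressed mainly in neurons from the paternal copy. Its level was 0.44 to 0.71 TPM in tumor, 0.60 to 1.03 TPM in PanIN and 0.22 to 1.66 TPM in normal lines. Only 3 of 19 lines, PanIN 1, normal 6 and normal 7, reached a TPM of 1. The exact permutation p was 0.0108 for tumor against PanIN lines, 0.796 for tumor against normal and 0.316 for PanIN against normal lines, and the limma adjusted p for tumor against PanIN lines without the filter was 0.402. Of its neighbours, Mkrn3 averaged 0.937, 1.08 and 1.13 TPM in tumor, PanIN and normal lines and Magel2 was at or below 0.04 TPM. Ube3a, the ubiquitin ligase gene that is biallelic outside neurons, averaged 49.8, 44.8 and 46.6 TPM in the same order. Snurf held 4.11 to 10.98 TPM while Snrpn, which shares its transcript, was listed at 0; how reads were divided between these rows is not given in the sources.

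**Figure D2:**
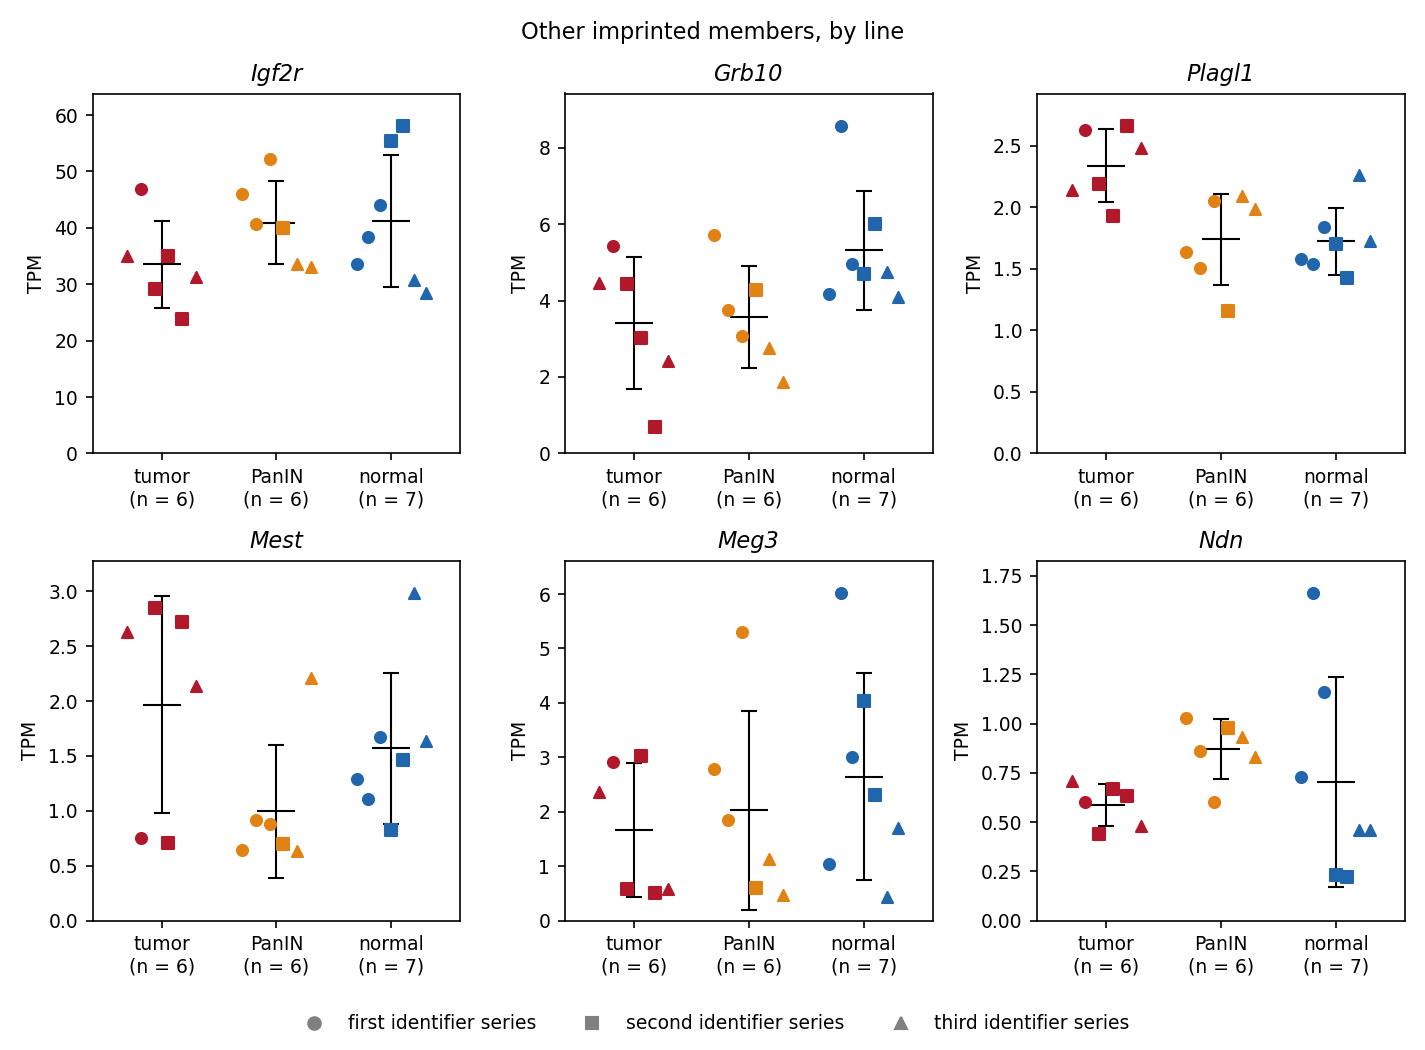
TPM (linear axes) of Igf2r, Grb10, Plagl1, Mest, Meg3 and Ndn in each line, by group; points are lines, marker shapes are identifier series, and bars show mean ± SD. The groups overlap in all 6 panels; normal 6 stands highest in Grb10 at 8.56 TPM, and 4 tumor lines and PanIN 6 lie above 2 TPM in Mest together with normal 12.

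Meg3 is a noncoding RNA transcribed from the maternal copy of the Dlk1-Dio3 cluster, and Rian and Mirg follow it in the same direction as hosts of small nucleolar RNAs and microRNAs. Levels of Meg3 varied more than 10-fold within the normal group and did not separate the groups. It had 2.37, 2.92, 0.58, 3.03, 0.51 and 0.59 TPM in tumor lines 3, 4, 5, 7, 8 and 9. PanIN lines 1 to 6 had 2.78, 1.85, 5.31, 0.60, 1.14 and 0.47 TPM, and normal lines ran from 0.44 (normal 12) to 6.01 TPM (normal 6) with a median of 2.30. Low and high lines occurred in each group. The log2 change was -0.42 (SE 0.39, limma adjusted p = 0.426) for tumor and -0.29 (SE 0.39, adjusted p = 0.769) for PanIN against normal lines, and -0.13 (SE 0.40, adjusted p = 0.863) for tumor against PanIN lines. The tumor-normal difference was 0.02, -0.94 and 0.23 within the series.

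Rian followed Meg3 line by line. In the 6 lines with Meg3 at 0.44 to 0.60 TPM, Rian had 1.26 to 2.95 TPM, and in the other 13 lines, with Meg3 at 1.04 TPM or more, it had at least 4.14 TPM. Over 19 lines Pearson's r of log2(TPM + 1) was 0.94 and Spearman's rho 0.93, each with a permutation p of 1e-05, the smallest that 100000 resamples can give (adjusted over 3 relations, 3e-05 and 1.5e-05). Without normal 6 and PanIN 3, the lines farthest from the median of Meg3, r was 0.94. Within the 3 identifier series, in order, r was 0.87, 0.96 and 0.96. Mirg, at 0.05 to 0.92 TPM, had an r of 0.76 (permutation p = 0.00012, adjusted p = 0.00018) and a rho of 0.84 (permutation p = 1e-05, again the smallest possible). Its r was 0.75 without the same pair of lines, and 0.62, 0.93 and 0.96 within the series.

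Dio3 lies at the far end of the cluster, encodes the deiodinase that inactivates thyroid hormone, and is transcribed mainly from the paternal copy. Its relation to Meg3 did not pass the permutation test (r = 0.43, permutation p = 0.0632, rho = 0.41, permutation p = 0.0808; r = 0.48 without the same pair of lines). Within the 3 series its r was -0.07, 0.57 and 0.29. Among tumor, PanIN and normal lines taken separately it was 0.82, 0.61 and -0.004, with no test. Dio3 fell in tumor lines, which averaged 1.02 ± 0.668 TPM (SD, n = 6) against 4.80 ± 2.84 TPM in normal lines (SD, n = 7), 2.75-fold lower (limma adjusted p = 0.00393). PanIN lines averaged 3.62 ± 2.07 TPM (SD, n = 6), and neither the PanIN-normal change (adjusted p = 0.652) nor the tumor-PanIN change (adjusted p = 0.0686) passed the test. Dlk1, a paternal gene of the same cluster, was at or below 0.01 TPM in every line, and Rtl1 was at or below 0.03 TPM.

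**Figure D3:**
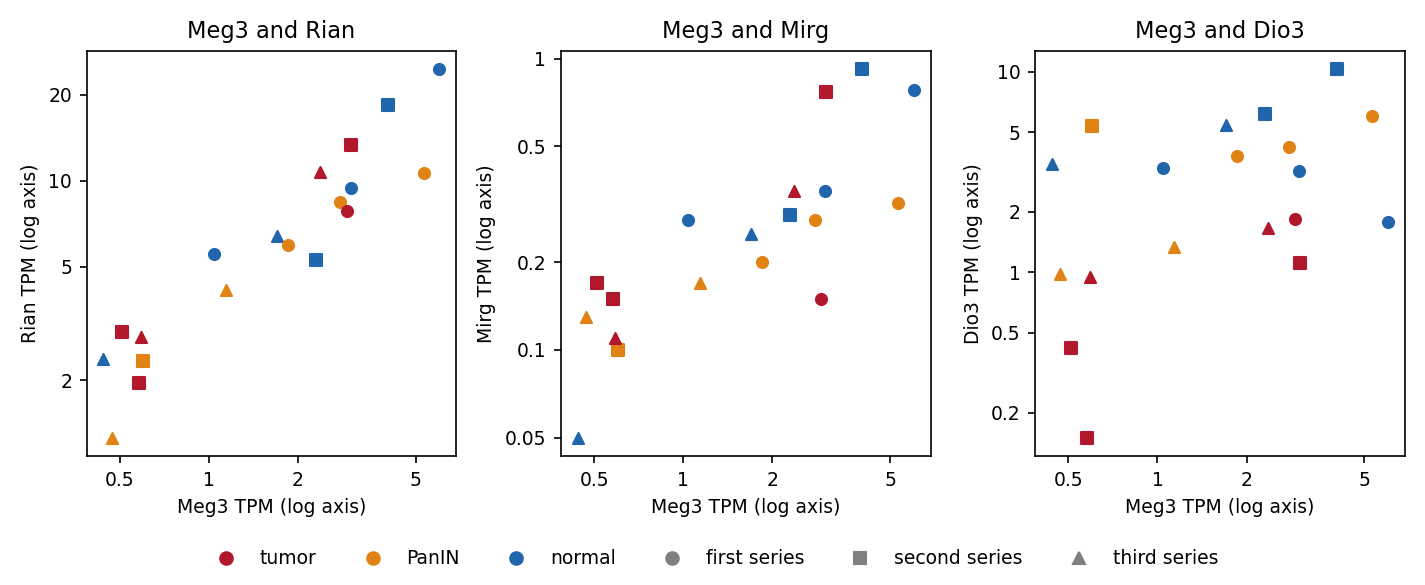
Level of Rian, Mirg and Dio3 (y, TPM, log axes) against Meg3 (x, TPM, log axes) in the 19 lines; colour is the group and shape the identifier series. Rian runs along with Meg3 in all 3 groups (r = 0.94), Mirg less tightly (r = 0.76), and Dio3 lies between 0.15 and 1.85 TPM in tumor lines, against 1.78 to 10.3 TPM in normal lines.

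By mean TPM over all lines the order of the 10 genes was Igf2r (38.7), Peg3 (26.9), Grb10 (4.16), Meg3 (2.14), Plagl1 (1.92), Mest (1.51), Ndn (0.720), Zim1 (0.070), Igf2 (0.0121) and H19 (listed at 0). The ranges of Grb10, Meg3, Plagl1, Mest and Ndn overlapped, so their order is not fixed by these lines, whereas Igf2r exceeded Grb10 in every line. In PanIN lines alone Peg3 stood first, with a mean of 43.6 TPM beside 40.9 TPM for Igf2r. Peg3, at the 65.7th percentile of tested genes, and Igf2r were the only members above the median tested gene.

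Over all tested genes limma called 6.78% in PanIN against normal lines (847 of 12500), 32.2% in tumor against normal lines (4024) and 1.6% in tumor against PanIN lines (200). Of the 5 tested members other than Peg3, 0, 1 and 0 were called in these comparisons, a count too small to be set apart from those shares. Their median log2 change was -0.29, -0.27 and -0.12, beside -0.03, 0.04 and 0.06 over all tested genes. The groups did not overlap for 3.05%, 7.26% and 1.8% of all tested genes, and for 0 of these 5 members in each comparison. The share of calls in the tumor-normal comparison that were higher was 55.1%, against 37.4% after rescaling without the rows that lack the authors' comparison. In the PanIN-normal comparison it was 45.7%, against 56.7% with median-of-ratios scaling.

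A list of 71 further imprinted genes of the mouse was examined in the same fit; 69 had a row and 40 were tested, while 29 had a mean below 1 TPM and 5 of these were listed at 0 in all lines. In tumor against normal lines 7 of the 40 rose and 11 fell (45% called, beside 32.2% of all genes, of which 17.8% were higher and 14.4% lower). In PanIN against normal lines 1 rose and 2 fell (7.5%, beside 6.78% of all genes, 3.1% higher and 3.68% lower). In tumor against PanIN lines 0 rose and 2 fell (5%, beside 1.6%, 0.392% higher and 1.21% lower). That last share rested on single lines: without PanIN 6 it was 22.7% of all genes and without tumor 4 it was 19.2%, and 70.1% and 69.2% of those calls were higher, against 24.5% with all lines. The median log2 change of the 40 was -0.09, -0.04 and -0.06 in these comparisons, in which all tested genes had medians of 0.04, -0.03 and 0.06. The tumor-normal and PanIN-normal comparisons share the normal lines.

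Among these genes Qpct, which encodes the glutaminyl cyclase that modifies the start of peptide hormones, had the largest fall on the log2 scale in both lesion groups. It averaged 1.41 ± 0.978 TPM in tumor (SD, n = 6), 2.26 ± 1.12 in PanIN (SD, n = 6) and 6.47 ± 2.37 in normal lines (SD, n = 7). Every normal line, at 3.96 TPM or more, lay above every tumor and PanIN line, the highest of which was at 3.38 TPM. Such a lack of overlap with normal lines held for 7.26% of all tested genes in tumor and 3.05% in PanIN lines. It fell 3.18-fold in tumor (limma adjusted p = 0.000496) and 2.32-fold in PanIN lines (adjusted p = 0.0100) against normal lines. Peg13, a paternal noncoding RNA from an intron of Trappc9, fell 1.57-fold in tumor (adjusted p = 0.000752) and 1.62-fold in PanIN lines (adjusted p = 0.00105), with 2.52 ± 0.193 TPM in tumor (SD, n = 6), 2.44 ± 0.525 in PanIN (SD, n = 6) and 4.57 ± 0.952 in normal lines (SD, n = 7). Its host Trappc9 was not called, with a log2 change of -0.02 in tumor and 0.07 in PanIN against normal lines. Zrsr1, a splicing factor gene inside an intron of Commd1, rose 1.37-fold in tumor lines (5.80 ± 0.557 TPM, SD, n = 6) against normal lines (3.98 ± 0.502 TPM, SD, n = 7; limma adjusted p = 0.000758), while Commd1 was not called.

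The cluster around Kcnq1 and Cdkn1c on chromosome 7 held changes in both directions. Osbpl5, an oxysterol-binding protein gene, averaged 10.3 ± 1.53 TPM in tumor and 16.6 ± 3.38 TPM in PanIN lines (SD, n = 6 each) and was 1.54-fold lower in tumor lines (limma adjusted p = 0.0135). Cd81, a tetraspanin gene, averaged 215 ± 38.2 TPM in tumor and 299 ± 25.0 TPM in PanIN lines (SD, n = 6 each) and was 1.40-fold lower (limma adjusted p = 0.0155), a call lost without PanIN 4 (adjusted p = 0.0532) and without 2 other lines. Both also fell in tumor against normal lines. In the opposite direction Phlda2, a placental growth restrainer, rose 1.86-fold in tumor against normal lines (limma adjusted p = 0.0145). Its level was 6.80 to 26.95 TPM in tumor and 4.96 to 7.88 TPM in normal lines, with tumor 5, tumor 8 and tumor 9 at 26.95, 22.71 and 19.85 TPM. Cdkn1c, the gene of the cyclin-dependent kinase inhibitor p57, rose 1.46-fold in tumor lines (5.45 ± 1.81 TPM, SD, n = 6) against normal lines (3.40 ± 1.17 TPM, SD, n = 7; limma adjusted p = 0.0346), but 6 of 19 fits without a line lost this call, the highest adjusted p being 0.0945 without tumor 8. Phlda2, Cdkn1c and the uncalled genes Trappc9 and Commd1 were named after their values were seen. With the identifier series as a term, the tumor-PanIN calls of Osbpl5 and Cd81 and the tumor-normal call of Cdkn1c were lost. With line numbers as a block, only Dio3 and Qpct kept their calls among the called genes of all lists examined here. In that fit the calls over all genes in tumor against normal lines fell from 4024 to 225.

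**Figure D4:**
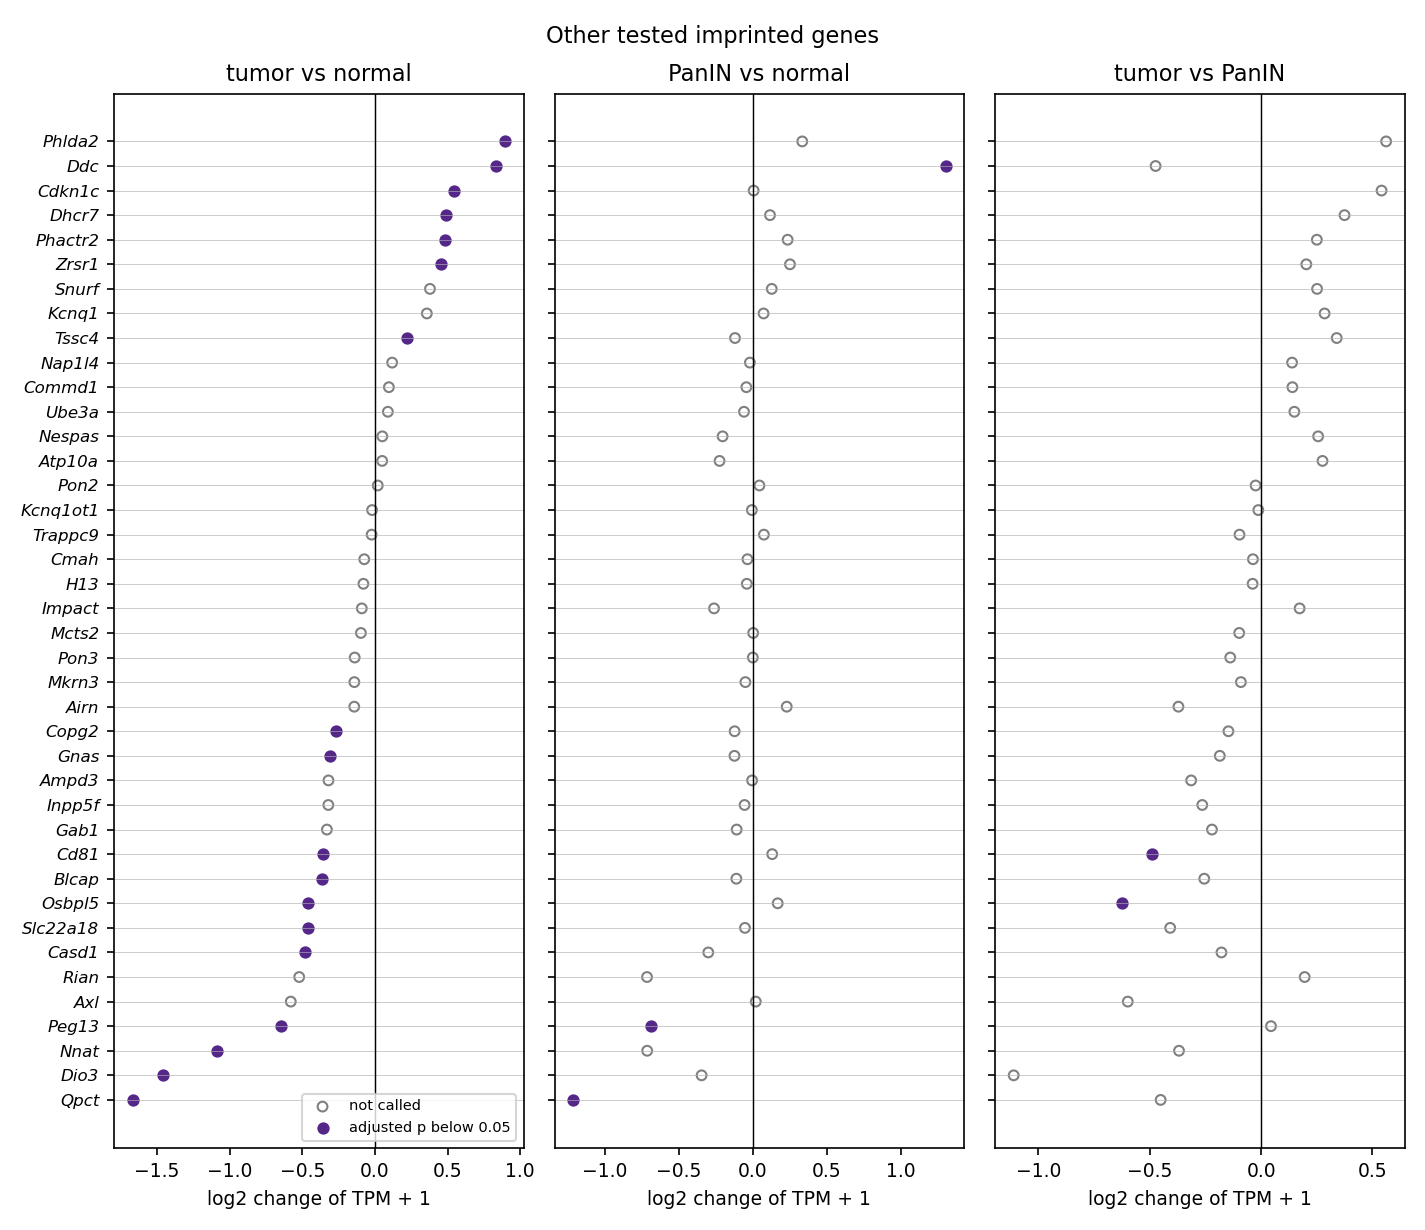
Change on the log2(TPM + 1) scale (x) of each of the 40 tested genes of the further imprinted list (y) in tumor against normal, PanIN against normal and tumor against PanIN lines; filled points passed an adjusted p below 0.05 in limma. Filled points number 18, 3 and 2; Qpct and Dio3 lie lowest in tumor against normal lines, and Ddc lies highest in PanIN against normal lines.

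With IGF2, IGF1 and insulin messages listed at trace level or 0, the rest of the IGF axis was examined as a list of 15 genes, 8 of them tested. In PanIN against normal lines 1 rose and 0 fell (12.5%, beside 6.78% of all genes). In tumor against normal lines 2 rose and 2 fell (50%, beside 32.2%), and in tumor against PanIN lines 0 were called (beside 1.6%). Its median log2 change was 0.05, -0.17 and -0.23 in these comparisons. The receptor genes Igf1r and Insr were present in all groups, with means of 8.71, 11.2 and 9.74 TPM and of 9.31, 10.9 and 10.6 TPM in tumor, PanIN and normal lines, and were not called. Igf2bp2, which encodes an RNA-binding protein named for its binding of Igf2 message, rose 1.40-fold in tumor lines (21.7 ± 3.14 TPM, SD, n = 6; limma adjusted p = 0.00546) and 1.33-fold in PanIN lines (20.6 ± 3.80 TPM, SD, n = 6; adjusted p = 0.0402) against normal lines (15.2 ± 2.52 TPM, SD, n = 7). The PanIN call was lost in 9 of 19 fits without a line, up to an adjusted p of 0.105 without PanIN 4. It was also lost with sex as a term, without the filter and with rescaling.

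Tests by limma of tumor against normal lines also called genes for binding proteins and an adaptor of this axis. Igfbp7, a secreted binding protein gene, fell to 259 ± 117 TPM in tumor lines (SD, n = 6), against 571 ± 268 TPM in normal lines (SD, n = 7), 2.22-fold lower (adjusted p = 0.00943). Igfbp3, the main carrier of IGFs in serum, was 1.98-fold lower (adjusted p = 0.0189), a call lost without tumor 8 (adjusted p = 0.0577). The adaptor gene Irs2 rose 1.25-fold (adjusted p = 0.0246), and this call too was lost without tumor 8 (adjusted p = 0.0743).

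Factors that maintain or read imprints were examined as a list of 20 genes, 17 of them tested. In PanIN against normal lines 1 rose (5.88%, beside 6.78% of all genes), and in tumor against normal lines 3 rose (17.6%, below the 32.2% of all genes). In tumor against PanIN lines 0 were called (beside 1.6%), and none fell in any comparison. Their median log2 change was -0.05, 0.11 and 0.09. Zfp57, whose product binds methylated control regions and protects them in the embryo, rose 1.66-fold in PanIN lines (10.4 ± 1.72 TPM, SD, n = 6) against normal lines (6.35 ± 3.36 TPM, SD, n = 7; limma adjusted p = 0.0392). Its ranges overlapped because normal 11 had 13.18 TPM, the highest of all lines, and 10 of 19 fits without a line lost the call, up to an adjusted p of 0.0871 without PanIN 5. Fits with sex as a term, without the filter and with rescaling lost the Zfp57 call as well. Tumor lines averaged 7.38 ± 1.01 TPM (SD, n = 6).

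In tumor against normal lines Mbd3, a subunit gene of the NuRD chromatin complex, rose 1.50-fold, at 58.8 ± 9.28 TPM (SD, n = 6) against 38.8 ± 5.20 TPM (SD, n = 7; limma adjusted p = 0.000898). Yy1, a zinc finger factor gene, rose 1.20-fold (adjusted p = 0.0389), and the call was lost in 5 of 19 fits without a line. Dnmt1, the maintenance DNA methyltransferase gene, rose 1.32-fold (adjusted p = 0.0489), and 14 of 19 such fits lost it, as did the series as a term. Trim28, the cofactor of Zfp57, averaged 196 TPM in tumor, 163 in PanIN and 167 in normal lines and was not called.

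The genes whose levels over the 19 lines were most like Peg3 among 9547 genes with a mean of at least 5 TPM were Adk, Ninj1, Tcea3, Aldh1a1 and Abcc4. Pearson's r of log2(TPM + 1) was 0.82, 0.80, 0.79, 0.79 and 0.78, given as a description with no p because the lines fall into a high and a low set for Peg3. Adk, which encodes adenosine kinase, averaged 135 TPM in tumor, 157 in PanIN and 114 in normal lines. Aldh1a1, a retinaldehyde dehydrogenase gene, averaged 20.6, 31.0 and 10.4 TPM, and Abcc4, a drug and nucleotide efflux pump gene, 50.0, 67.6 and 41.2 TPM in the same order. Among tumor lines r was 0.93 for Adk, 0.90 for Ninj1, 0.87 for Tcea3, 0.84 for Aldh1a1 and 0.73 for Abcc4, where tumor 3 and tumor 4 set the range of Peg3. Among PanIN lines the same genes had r between -0.45 and 0.28, and among normal lines between -0.33 and 0.79. None of these 5 is on the imprinted list.

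For the other tested members the most similar gene was Rian for Meg3 (r = 0.94), Cfl1 for Mest (r = 0.92), Golgb1 for Igf2r (r = 0.87), Gm6548 for Grb10 (r = 0.87) and Csnk2a2 for Plagl1 (r = 0.82), again over 19 lines and with no p. Among these top genes only Rian is from the member's own imprinted cluster.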

How the data were processed

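The authors deposited TPM values of 29861 rows for each of the 19 lines in a single table. Build mm9, Bowtie 1.1.0, RSEM 1.2.11, DESeq2 1.4.1, DESeq and FastQC are named in the submitters' processing notes; the gene annotation and strand setting are not given in the sources used here. The same deposited table gives the authors' mean signal of normalized counts, log2 fold change, standard error and test statistic (both entered as a score) and p-value per comparison. Rows that lack the authors' comparison took 16.3% to 28.6% of a line's TPM. TPM is no count, so log2(TPM + 1) was tested with limma 3.58.1 in R 4.3.3 (eBayes with trend, two-sided, 1 mean per group over 19 lines) on genes with TPM of at least 1 in at least 6 lines. P-values were adjusted by Benjamini-Hochberg over all 12500 genes tested, and genes were called below 0.05. Members below the filter were compared by exact permutation tests with scipy 1.17.1. A planned adjustment of these over the members alone was dropped. Permutation tests of Rian, Mirg and Dio3 against Meg3 were added beyond the plan.

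Members and lists were chosen with earlier results of these data known. Named are all members, listed imprinted genes called in a comparison (up to 6 by smallest p), neighbours in the members' domains, up to 4 called genes of each other list, and the genes most like each member. An allele of the PanIN and tumor mice is not reported here. Promoter sequences and gene positions are from RefSeq, build GRCm38.p6, which is not the authors' build. The tests were checked on simulated data. Alternatives were another pseudocount, filter and scaling, series or sex as a term, each line left out and line numbers as a block. They also included eBayes without trend, fits of the pair of groups alone and, for tested members, the exact permutation test. Figures were drawn with matplotlib 3.10.9.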

Additional observations from a re-analysis of the deposited data

Results flagged for a closer look

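In 26 groups of 6 or 7 lines tested for a single line standing apart (Dixon's ratio of the gap to the range), 4 held such a line. The limits used mark about 1 in 20 groups by chance only if values are normally distributed. That was not checked for these TPM values, so the count of 4 is not read as an excess. Mest stood at 2.21 TPM in PanIN 6, while the other PanIN lines had 0.63 to 0.92 TPM, and at 2.98 TPM in normal 12, while the other normal lines had at most 1.67 TPM. Grb10 stood at 8.56 TPM in normal 6, while the next normal line had 5.99 TPM. Igf2 was listed at 0.03 TPM in tumor 8 and at 0 or 0.01 TPM in the other tumor lines, a difference of about a single read.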

How the results depend on the processing

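The count of tested members other than Peg3 called in tumor against normal lines was 1. With the filter at TPM 5 it was 0 because Plagl1, at most 2.66 TPM, was no longer tested. It became 0 with rescaling and with line numbers as a replicate block, and ran from 0 to 2 without a line. In tumor against PanIN lines it ran from 0 to 2, and in PanIN against normal lines it stayed 0 without a line and was 1 (Zim1) without the filter. Exact tests among members under the filter with an unadjusted p below 0.05 numbered 5 of 9. No share over all rows stands beside this count because the exact test was run on members only. Limma without the filter gave 1 at an adjusted p below 0.05 over 20990 rows, a stricter threshold. That 1 was in PanIN against normal lines, where 4.33% of these rows were called. The share was 20.3% in tumor against normal lines and 0.443% in tumor against PanIN lines. Genes called in PanIN against normal lines, 847, became 535 with the filter at TPM 5 and 258 with the block (pairing by number), and 496 to 893 without a line, the fewest without PanIN 5. Genes called in tumor against normal lines, 4024, became 225 with the block and 2657 to 4860 without a line, the fewest without tumor 8. Genes called in tumor against PanIN lines, 200, became 130 with the filter at TPM 5, 93 without a filter, 333 with quantile normalization, 65 with the series as a term, 97 from the pair of groups alone and 8 with the block. They ran from 53 (without PanIN 1 or tumor 8) to 2836 (without PanIN 6). Deviations from the group means of the 7 same-numbered pairs correlated at -0.31 to 0.25, beside -0.72 to 0.61 for the 113 other pairs across groups. Same-numbered lines come from mice of different genotype, and whether they share more than a number was not tested. The block is informed only by lines that share a number, and other causes of its lower counts were not tested. For Peg3 the tumor-normal difference was -0.20 within the second series and the tumor-PanIN difference 0.17 within the first, against the direction over all lines. Values of single genes numbered 1547 over all alternatives. Of these, 1355 were counted as unchanged, 142 calls were lost, 6 were gained, 18 untested values moved and 26 were counted as changed in direction. Of those 26, 2 were those of Peg3 and 24 belonged to small changes called in neither setting. Unchanged means the same direction and side of the threshold or, for values without a test, a shift below the SD within groups. Listed genes other than members entered only where called over all lines, so they could lose calls but not gain them. Plagl1 accounted for 6 of the lost calls. Gains of Grb10 and Plagl1 with the exact permutation test rest on unadjusted p. The log2 change of Plagl1 in PanIN against normal lines was -0.0027 with pseudocount 0.1, -0.014 with rescaling and -0.016 with the series as a term, and ran from -0.035 to 0.068 without a line. That of Igf2r was -0.0025 with rescaling, -0.0040 with sex as a term and -0.12 with the block, and ran from -0.060 to 0.11. In tumor against PanIN lines the change of Meg3 was 0.092 with the series as a term and 0.31 with the block, and ran from -0.30 to 0.12 without a line; that of Grb10 was 0.52 with the block and ran from -0.25 to 0.13. Within single series, 14 further differences, none called over all lines, changed sign and were counted by size alone as unchanged or moved.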

Other observations

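The lines high in Mest were largely the lines low in Meg3, an overlap chosen after the values were seen and given with no test. Of the 6 lines highest in Mest, at 2.14 TPM or more, 5 (tumor 5, tumor 8, tumor 9, PanIN 6 and normal 12) were among the 6 lowest in Meg3, at 0.60 TPM or less. They come from all 3 groups, and none is from the first identifier series. Tumor 5, tumor 8 and tumor 9 were also the tumor lines highest in Phlda2.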
